A study of Mus musculus with 40 samples.

Results

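The cholesterol synthesis and SREBP gene set holds 7 genes that make cholesterol or govern its making: the regulators Srebf2, Scap and Insig1 and the enzymes Hmgcs1, Fdft1, Sqle and Idi1. They were chosen by name, with earlier results of these data known. The deposited table held 7 transcripts of 6 of these genes, among 6831 transcripts of 5853 gene symbols. Hmgcs1 had 2 transcripts, and Idi1, an isomerase of the isoprenoid building blocks, had no entry and is not analysed here. RNA was sequenced from the whole cortex of male C57BL/6 mice aged 12 weeks, which had undergone daily sessions of sham treatment or of high-frequency head impact (HF-HI) and were sampled 24 h after the last one. Saline or memantine, which blocks the NMDA type of glutamate receptor, was injected intraperitoneally 1 h ahead of each session. There were 10 libraries in each of 4 groups, which were sham and HF-HI under saline and sham and HF-HI under memantine, and the sham mice shared the isoflurane anaesthesia and handling of the impact mice. The recovered reads per library numbered 13322404 to 17529644, and the labels name no sequencing batch.

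Brain cholesterol is made locally, because lipoprotein cholesterol of the blood hardly crosses the blood-brain barrier. Sterol regulatory element binding protein 2 (SREBP-2, the product of Srebf2) is held in the endoplasmic reticulum by the cholesterol sensor SCAP together with the retention protein INSIG-1. When sterols are low, SCAP carries SREBP-2 to the Golgi, where proteases free its transcription factor domain to switch on the synthesis enzymes and Insig1 itself.

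Head impact was accompanied by small losses of some of these transcripts. The longer Hmgcs1 transcript differed by -12.1% (-0.19 in log2 counts) between saline HF-HI and saline sham. Between memantine HF-HI and memantine sham it differed by -10.4% (-0.16 in log2 counts), and it passed an unadjusted p-value of 0.05 in both arms. Fdft1 differed by -6.28% in the saline arm and -7.47% in the memantine arm and passed in the latter. Srebf2 differed by -7.16% and -8.66% and passed when both arms were averaged. Sqle, Scap, Insig1 and the shorter Hmgcs1 transcript did not pass in any of these comparisons, and no member had a Benjamini-Hochberg adjusted p-value under 0.1 in limma without covariates. With the strongest axis of residual variation, which Srebf2 itself follows, as a covariate, the averaged fall of Srebf2 had an adjusted p-value of 0.042. The axis was made from residuals of the same transcripts, Srebf2 among them, around their group means. It therefore cannot change the fall itself, and it lowers the residual spread of a transcript that follows it. The fall of Srebf2 stayed at 0.061, while its SE went from 0.027 to 0.015. The smaller p-value follows from that construction and is no separate support for the fall. In that setting 90 transcripts of the table had an adjusted p-value under 0.1 on the average of both arms, against 29 without the covariate. No member passed in any comparison of memantine with saline.

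Because sterol-responsive promoters are recognised by short motifs, the promoter sequences of the members were read from RefSeq (mouse build GRCm38.p6). It gave an entry for 5 of the 7 genes and none for Fdft1 and Sqle. The 3 shown belong to the enzyme gene with the largest loss, to the feedback gene that varied with it between libraries, and to the regulator that did not. Each line gives the 250 bases before the annotated start, on the plus strand. Capitals mark matches, on either strand, to the sterol regulatory element (SRE) TCACNCCAC, the CCAAT box, the GC box GGGCGG and the E-box CACGTG, and none of the capital runs overlap.
Hmgcs1, chr13:119690101-119690350: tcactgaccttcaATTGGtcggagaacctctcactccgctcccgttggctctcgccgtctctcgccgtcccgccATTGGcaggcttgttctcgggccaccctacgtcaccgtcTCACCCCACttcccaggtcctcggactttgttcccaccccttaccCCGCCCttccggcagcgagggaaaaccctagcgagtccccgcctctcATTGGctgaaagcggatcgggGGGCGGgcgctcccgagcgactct
Insig1, chr5:28071162-28071411: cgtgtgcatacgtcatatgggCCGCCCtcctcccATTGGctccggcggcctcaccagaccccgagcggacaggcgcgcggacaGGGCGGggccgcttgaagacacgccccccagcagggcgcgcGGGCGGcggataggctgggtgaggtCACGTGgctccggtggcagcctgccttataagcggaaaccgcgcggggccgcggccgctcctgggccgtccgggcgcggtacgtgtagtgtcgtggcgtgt
Srebf2, chr15:82147019-82147268: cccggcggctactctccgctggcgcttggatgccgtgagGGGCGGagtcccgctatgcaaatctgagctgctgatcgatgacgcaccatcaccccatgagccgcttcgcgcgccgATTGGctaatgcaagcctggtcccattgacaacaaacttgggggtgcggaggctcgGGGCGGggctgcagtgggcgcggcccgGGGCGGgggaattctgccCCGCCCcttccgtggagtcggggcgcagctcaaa

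The Hmgcs1 promoter held the SRE letters at bases -137 to -129 from the start, on the plus strand, within the window chr13:119690204-119690232 (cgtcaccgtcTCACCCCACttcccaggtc). Of the 38 cholesterol pathway genes that had both a measured transcript and a promoter entry, Hmgcs1 was the 1 gene with this motif, which occurred in 1.24% of all 32851 promoters of the same 300-base window and in 1.44% of the 27025 genes they belong to. The 300 bases run from 250 before to 50 after the start. The fully spelled form TCACCCCAC gave the same gene, against 0.614% of genes. Other forms of the SRE were not searched, so a gene without a match was not shown to lack an SRE. In the whole window Hmgcs1 also had 4 CCAAT matches and Srebf2 had 5 GC boxes, of which 1 each lay after the start and is not in the stretches shown. Insig1 had an E-box at -101 to -96. Among the 38 genes, 23 had a CCAAT box (41.1% of all genes with a promoter entry), 28 had a GC box (38.2%) and 7 had an E-box (8.09%).

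Levels were compared between genes per kilobase of transcript, as normalised read counts over all 40 libraries. A normalised read count is the number of reads of a transcript divided by the size factor of its library. Hmgcs1, the cytosolic synthase that makes HMG-CoA, had the highest level, with 930 ± 115 counts per kilobase for the longer transcript (NM_145942) and 532 ± 71.7 for the shorter one (NM_001291439; SD, n = 40). Insig1 followed with 451 ± 33.0 and Srebf2 with 377 ± 46.0. Fdft1, the squalene synthase that commits farnesyl groups to sterols, had 356 ± 29.1. Sqle, the epoxidase that acts on squalene, had 329 ± 27.7 and Scap had 315 ± 62.5. The longer Hmgcs1 transcript was above the shorter one in 39 of 40 libraries, and Insig1 was above Srebf2 in 35. Fdft1 was above Sqle in 33. Srebf2 exceeded Fdft1 in 28 libraries and Sqle exceeded Scap in 22. Whether the levels within these pairs differed was not tested.

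**Figure D1:**
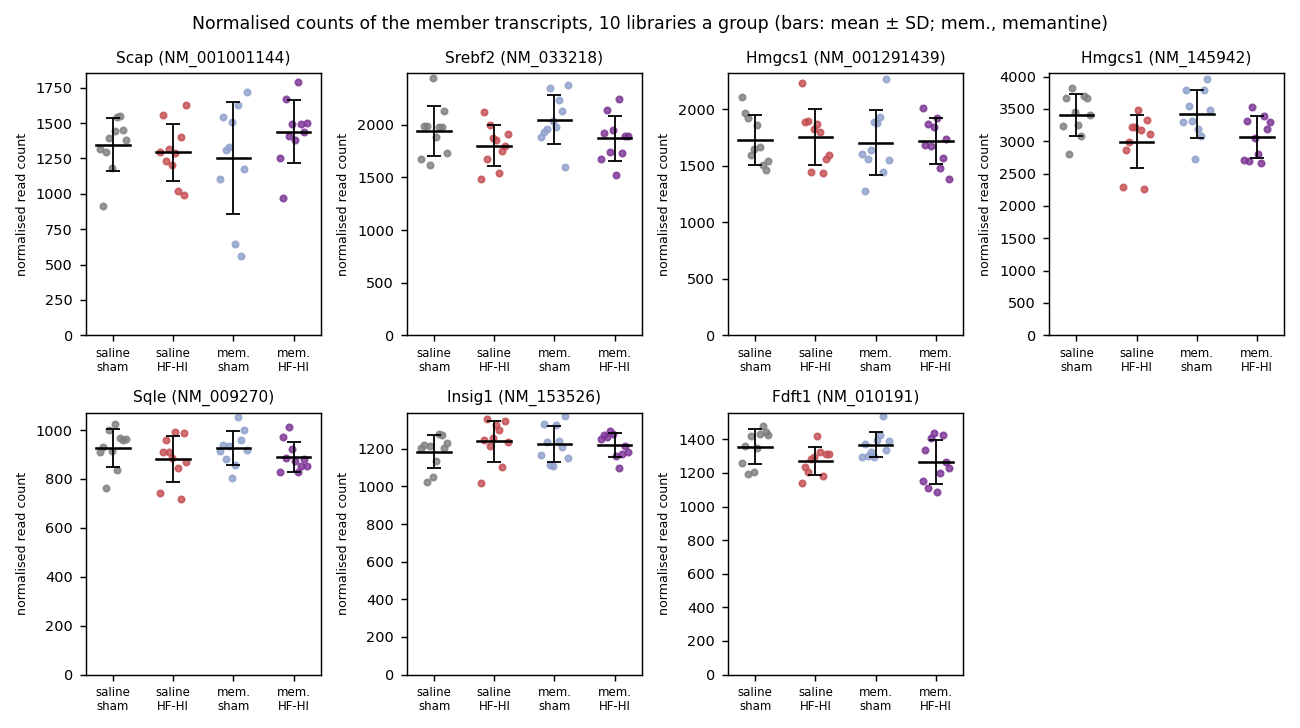
Normalised read counts (vertical axes, from 0) of the 7 member transcripts in the 4 groups. Points are libraries, 10 per group, and bars show the mean and SD. The longer Hmgcs1 transcript (NM_145942) averaged 3409 and 3419 in the sham groups and 2995 and 3064 in the HF-HI groups, and 2 memantine sham libraries were low for Scap, at 557 and 648.

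The first question was whether head impact without the drug was accompanied by a change of the members. The regulators are given before the enzymes. Srebf2 (chromosome 15, 82147269 to 82205379) had normalised counts of 1616 to 2442, median 1979, in saline sham, and of 1485 to 2124, median 1826, in saline HF-HI. Those ranges overlapped over most of their width, although 8 of 10 impact libraries lay below the sham mean. In the memantine arm, Srebf2 ran from 1597 to 2377, median 2005, in sham and from 1520 to 2248, median 1897, in HF-HI, again with 8 of 10 impact libraries below the sham mean. Srebf2 did not pass in either arm (limma, deposited log2 scale, p = 0.164 under saline and p = 0.0833 under memantine). Over both arms the mean was 1995 ± 238 in the 20 sham libraries and 1837 ± 205 in the 20 impact libraries (SD). On the average of both arms Srebf2 fell by 0.061 ± 0.027 (SE) on the deposited log2 scale, a change of -0.12 in log2 counts, with limma p = 0.0296 and a Benjamini-Hochberg adjusted p = 0.461. That call was lost without saline sham replicate 5, saline HF-HI replicate 1, memantine sham replicate 10 or memantine HF-HI replicate 6, each left out alone (p = 0.0507 to 0.0561).

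The deposited values are variance-stabilised, so they compress changes of low counts. The local slope of the deposited value against the log2 count was 0.40 at a count of 1000, 0.53 at 2000 and 0.70 at 5000. For that reason the percent difference of mean normalised counts is given beside each value on the deposited scale.

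Scap (chromosome 9, 110333288 to 110384949), the escort and sterol sensor, had counts of 916 to 1552, median 1386, in saline sham, and of 990 to 1627, median 1292, in saline HF-HI. It varied most in memantine sham, where it ran from 557 to 1723, median 1322, and 2 libraries, replicate 8 at 557 and replicate 6 at 648, stood below the next at 1106. In memantine HF-HI it ran from 972 to 1791, median 1462. All groups overlapped, and the difference was -4.02% under saline (limma p = 0.665) and 14.8% under memantine (p = 0.0966), which passed without memantine sham replicate 7 or 10 or memantine HF-HI replicate 2 (p = 0.0388 to 0.0496). Without memantine sham replicate 8 the memantine value went from 0.105 to 0.059 on the deposited log2 scale (p = 0.289), and without replicate 6 to 0.067 (p = 0.257).

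Insig1 (chromosome 5, 28071412 to 28078662), the retention protein and a feedback target of SREBP-2, was nearly level. Its counts ran from 1021 to 1278, median 1208, in saline sham and from 1018 to 1361, median 1252, in saline HF-HI. The memantine sham libraries lay between 1111 and 1375, median 1222, and the memantine HF-HI libraries between 1099 and 1296, median 1233. No pair of groups was apart, and limma gave 0.029 ± 0.021 (SE, p = 0.170) under saline and -0.0031 (p = 0.883) under memantine on the deposited log2 scale. Without saline HF-HI replicate 1, the library lowest for Insig1 in its group, the saline value was 0.042 (p = 0.0371).

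Of the enzymes, Hmgcs1 (chromosome 13, 119690351 to 119708260) had the largest difference. The longer transcript had counts of 2797 to 3831, median 3428, in saline sham and of 2269 to 3491, median 3143, in saline HF-HI. Of the 10 saline HF-HI libraries, 9 lay below the sham mean of 3409. This transcript fell by 0.118 ± 0.045 (SE) on the deposited log2 scale, or -0.19 in log2 counts (limma p = 0.0131, Benjamini-Hochberg adjusted p = 0.389). Under memantine the counts ran from 2727 to 3968, median 3402, in sham and from 2660 to 3530, median 3120, in HF-HI, with 9 of 10 impact libraries below the sham mean. The fall was 0.097 ± 0.045 (SE; limma p = 0.0384, adjusted p = 0.968). The memantine call was lost without any one of memantine sham replicates 2, 3, 8, 9 and 10 and memantine HF-HI replicates 1, 3, 6 and 7 (p = 0.0516 to 0.0835), while the saline call was kept without each library. Averaged over both arms the fall was 0.107 ± 0.032 (SE; limma p = 0.0018, Benjamini-Hochberg adjusted p = 0.179), with 18 of 20 impact libraries below the mean of their sham group and means of 3414 ± 341 against 3030 ± 364 (SD, n = 20 each). Permutation tests of the single transcript gave p = 0.0232 under saline and p = 0.0409 under memantine (two-sided, 100000 resamples).

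The shorter Hmgcs1 transcript did not pass in either arm. Its counts ran from 1467 to 2109, median 1655, in saline sham, and from 1440 to 2231, median 1816, in saline HF-HI. The memantine groups ran from 1274 to 2271, median 1624, in sham and from 1381 to 2014, median 1713, in HF-HI. The groups overlapped throughout, with limma p = 0.825 under saline and p = 0.850 under memantine.

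Since both Hmgcs1 transcripts share sequence, the division of reads between them is uncertain, and their sum was examined as well. Under saline the summed count was 5139 ± 289 in sham and 4750 ± 434 in HF-HI, and under memantine 5125 ± 424 in sham and 4784 ± 291 in HF-HI (SD, n = 10 each). On log2 summed counts the gene fell by 0.12 ± 0.048 (SE) under saline (limma p = 0.0182, Benjamini-Hochberg adjusted p = 0.357) and by 0.098 under memantine (limma p = 0.0466, adjusted p = 0.958). Permutation tests gave p = 0.0211 and p = 0.0312. The longer transcript made up 66.3% ± 4.33 of the sum in saline sham and 62.9% ± 5.18 in saline HF-HI, against 66.7% ± 4.99 and 64.0% ± 4.43 in the memantine groups (SD, n = 10). The share was lower with impact in both arms, and neither difference passed p of 0.05 (permutation test, two-sided, p = 0.131 and p = 0.212). The average of both arms was not tested for the share.

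Fdft1 (chromosome 14, 63145150 to 63181687) had the next smallest limma p-value of a member on the average of both arms. Its counts were 1195 to 1478, median 1389, in saline sham and 1139 to 1420, median 1289, in saline HF-HI, where 9 of 10 libraries lay below the sham mean. In memantine sham they were 1296 to 1537, median 1354, and in memantine HF-HI 1084 to 1439, median 1250. There 7 of 10 impact libraries lay below the sham mean and 6 below the lowest sham library. Fdft1 fell by 0.052 ± 0.022 (SE) on the deposited log2 scale under memantine (limma p = 0.025, Benjamini-Hochberg adjusted p = 0.968), whereas the saline value of -0.042 ± 0.022 (SE) had p = 0.0675. The memantine call was lost without memantine sham replicate 8 or memantine HF-HI replicate 1, 3 or 6 (p = 0.0522 to 0.0663), and the saline difference passed without saline sham replicate 1, 3 or 5 or saline HF-HI replicate 6 (p = 0.0283 to 0.0456). On the average of both arms Fdft1 fell by 0.047 ± 0.016 (SE; limma p = 0.005, adjusted p = 0.250), with means of 1362 ± 87.7 in the 20 sham and 1268 ± 107 in the 20 impact libraries (SD).

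Sqle (chromosome 15, 59315092 to 59331193) had counts of 762 to 1024, median 944, in saline sham, and of 717 to 991, median 897, in saline HF-HI. The memantine groups ran from 803 to 1055, median 926, in sham and from 828 to 1014, median 877, in HF-HI. Although 15 of 20 impact libraries lay below the mean of their sham group, Sqle did not pass (differences of -4.82% and -3.73%, limma p = 0.196 and p = 0.331, and p = 0.112 for the average).

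**Figure D2:**
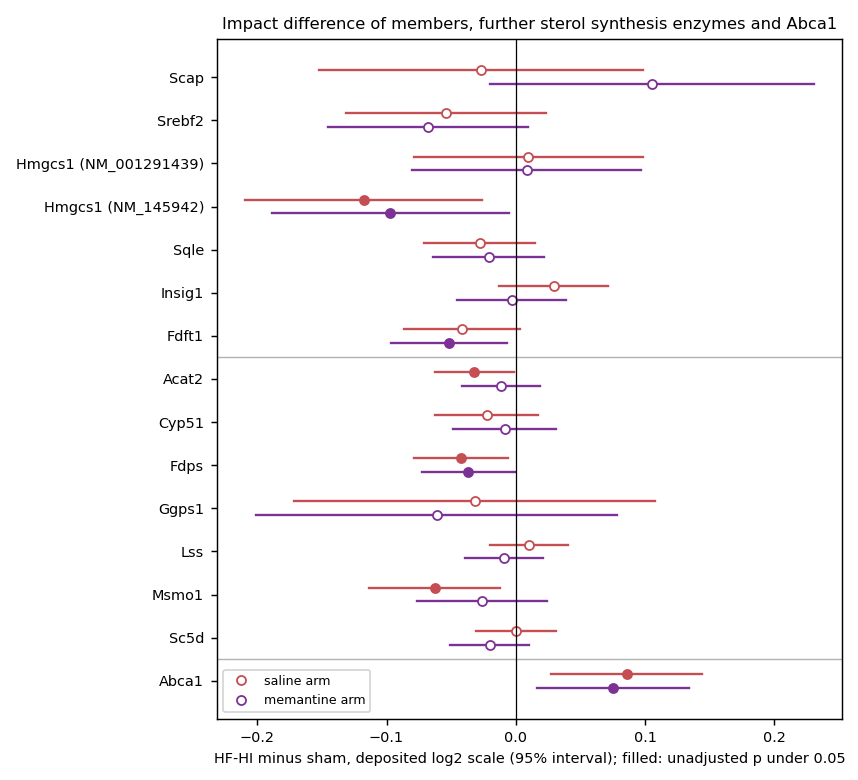
HF-HI minus sham on the deposited log2 scale (horizontal axis, with 95% intervals) in the saline arm and the memantine arm for the members, further sterol synthesis enzymes and Abca1. Points are filled where the unadjusted p-value lay below 0.05. The longer Hmgcs1 transcript lay at -0.118 and -0.097 while Abca1 lay at 0.086 and 0.075.

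Counted over the set, 5 of 7 transcripts were lower in saline HF-HI than in saline sham, and 1 passed p of 0.05. Over all transcripts tested, 9.53% of the 6831 transcripts passed that test and 0.205% also passed the adjusted threshold of 0.1. In the memantine arm 5 of 7 were lower and 2 passed, where 4.61% of all transcripts passed and 0.0146% also passed the adjusted threshold of 0.1. For the average of both arms 4 of 7 were lower and 3 passed, all lower, where 9.66% of all transcripts passed and 0.425% also passed the adjusted threshold of 0.1. The median difference of the members was -0.028 under saline, -0.021 under memantine and -0.024 on average, while the median over all transcripts was -0.000315 in the memantine arm and nearer to 0 in the other comparisons of impact. With a set of this size, 1 transcript is a larger share than the background, and nothing particular to the set was read from these counts. In whole cortex, fewer cells of a type and less RNA per cell cannot be told apart.

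The next question was whether memantine changed the members, or changed how they differed with impact. No member passed at p of 0.05 in any of these comparisons. Between the sham groups, which share no impact, the smallest p of a member was 0.285, and 7.51% of all transcripts passed (0.0293% with an adjusted p-value under 0.1). Between the HF-HI groups the smallest was 0.265, where 3.91% of all transcripts passed and 0% also passed the adjusted threshold of 0.1. On the average drug difference it was 0.209, for Srebf2 at 0.035 higher with memantine, where 8.11% passed and 0.0146% also passed the adjusted threshold of 0.1. These comparisons use the same libraries as the impact comparisons.

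The interaction, which tests whether the impact difference itself differed between the drug arms, was likewise not passed by any member, where 3.73% of all transcripts passed and 0% also passed the adjusted threshold of 0.1. The largest interaction was that of Scap, at 0.132 ± 0.087 (SE) on the deposited log2 scale with limma p = 0.138, and it was 0.086 without memantine sham replicate 8 and 0.094 without replicate 6. The longer Hmgcs1 transcript had an interaction of 0.021 (95% interval -0.109 to 0.150) and Fdft1 of -0.01 (-0.073 to 0.053). These intervals are wide enough to hold a difference between the arms of the size of either impact difference.

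The remaining pathway was read through 5 lists of related genes, of which 48 transcripts of 47 of the 65 genes listed were in the table. Of the other sterol synthesis enzymes, 9 of 18 were measured. In the saline arm 7 of 9 were lower with impact and 3 passed, and in the memantine arm 9 of 9 were lower and 2 passed. The shares of all transcripts that passed were 9.53% and 4.61%. On the average 8 of 9 were lower and 4 passed, beside 9.66% of all transcripts, among them Fdps, Msmo1 and Acat2, with a median of -0.022 beside an all-transcript median near 0.

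Fdps, which makes the farnesyl diphosphate that Fdft1 uses, was the enzyme of this list that passed in both arms. Its saline call was lost in 2 of 40 fits that each left out a library, and its memantine call in 15. Fdps is described by its normalised counts. It averaged 594 ± 48.5 in saline sham and 541 ± 56.9 in saline HF-HI (limma p = 0.0229), and 592 ± 54.7 and 545 ± 34.2 in the memantine groups (p = 0.0471; SD, n = 10 each). Msmo1, a methylsterol oxidase downstream of Sqle, averaged 1225 ± 55.1 in saline sham and 1108 ± 109 in saline HF-HI (p = 0.016), and 6 of 10 impact libraries lay below the lowest sham library. In the memantine arm Msmo1 averaged 1226 ± 127 in sham and 1176 ± 119 in HF-HI. Sc5d, a desaturase of the last steps, was higher in memantine sham than in saline sham (p = 0.0433).

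Of the other genes of SREBP processing and sterol sensing, 10 of 12 were measured. Sec23a, a coat protein of the vesicles that leave the endoplasmic reticulum, rose with impact by 3.31% on the average of both arms (limma p = 0.00377) and was above the sham mean in 9 of 10 saline and 10 of 10 memantine impact libraries. Sec23a was the 1 gene of the 10 measured to pass on that average, beside 9.66% of all transcripts. Rnf139, a ubiquitin ligase of the endoplasmic reticulum, was lower with memantine, at 747 ± 39.4 against 794 ± 42.5 in sham (p = 0.0127) and 745 ± 28.1 against 787 ± 41.7 in HF-HI (p = 0.0267). Mbtps1, the first protease that cuts SREBP in the Golgi, was higher with memantine between the HF-HI groups (p = 0.00798). Srebf1, the gene for SREBP-1, did not pass in any comparison.

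Of the uptake and transport genes, 11 of 14 were measured, and 1 passed on the average of both arms, beside 9.66% of all transcripts. Stard4, a sterol carrier, differed by -12.1% with impact (limma p = 0.0424), a call that was lost in 17 of 40 fits that each left out a library. Of the turnover and efflux genes, 6 of 9 were measured. On the average of both arms 2 passed, beside 9.66% of all transcripts. Both were higher with impact: Abca1 and Clu, a lipid-carrying apolipoprotein (limma p = 0.0436, lost in 17 of 40 such fits). Soat1, which esterifies cholesterol, was lower in the saline arm (p = 0.0408). Abca1, the cholesterol exporter, was higher with impact in both arms. It averaged 2034 ± 200 (1760 to 2384) in saline sham and 2269 ± 173 (1987 to 2501) in saline HF-HI, and 2009 ± 158 and 2215 ± 180 in the memantine groups, with 18 of 20 impact libraries above the mean of their sham group. On the average of both arms Abca1 rose by 0.080 ± 0.021 (SE) on the deposited log2 scale, a difference of 10.9% (limma p = 0.000357, Benjamini-Hochberg adjusted p = 0.0938). It was the 1 pathway transcript with an adjusted p-value under 0.1, and that held in 20 of 49 other settings, in which its adjusted p-value ran from 0.0262 to 0.162.

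The SREBP-1 fatty acid synthesis list had 12 transcripts of 11 of its 12 genes. All 12 were lower with impact in the saline arm, where 3 passed (Scd1, Fads1 and Fads2), and 11 of 12 were lower in the memantine arm, where Scd1 alone passed. On the average of both arms 12 of 12 were lower and 3 passed (Scd1, Fads2 and Scd2). Of all transcripts 9.53% passed under saline, 4.61% under memantine and 9.66% on the average. Scd1, a desaturase, averaged 3418 ± 226 in sham and 3165 ± 381 in HF-HI under saline, and 3655 ± 269 and 3333 ± 210 under memantine (SD, n = 10 each). On the average drug difference 11 of 12 were higher with memantine and 4 passed (Fads1, Acss2, Scd1 and Fasn), beside 8.11% of all transcripts. The median of the list was 0.019 on the deposited log2 scale there.

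**Figure D3:**
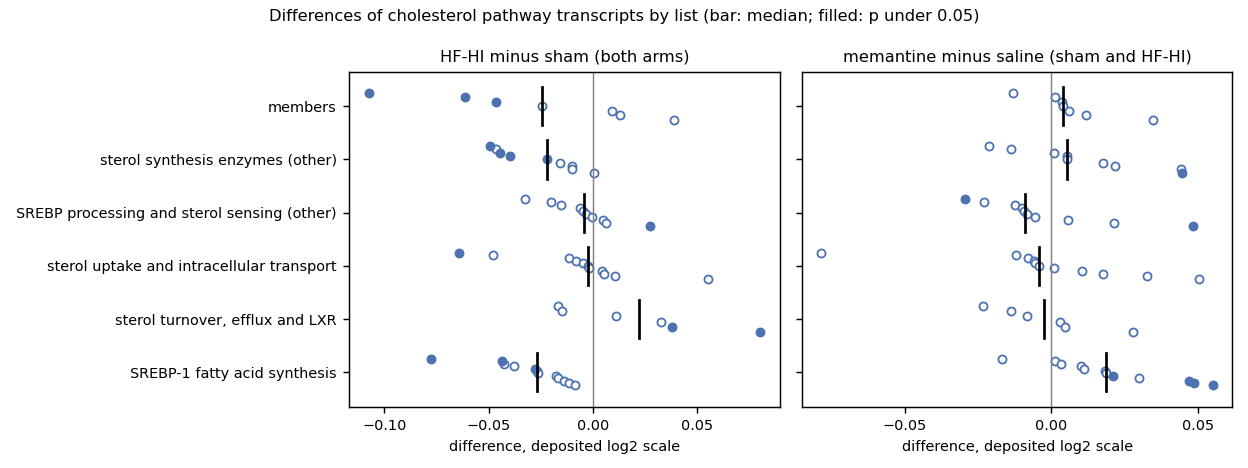
Impact differences averaged over both arms (left) and drug differences averaged over sham and HF-HI (right), on the deposited log2 scale (horizontal axes), of the member transcripts and of the 5 other cholesterol pathway lists, one point per transcript, filled where the unadjusted p-value was under 0.05, with a bar at the median of each list. For the average impact difference the medians were -0.024 for the members, -0.022 for the other sterol synthesis enzymes and -0.027 for the fatty acid list.

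Separately from the groups, 4 of the 7 member transcripts varied together from library to library. After group means were removed, 21 pairs of member transcripts were correlated over the 40 libraries, and 6 pairs had a Benjamini-Hochberg adjusted permutation p under 0.05. All 6 were positive, and they were the pairs among the longer Hmgcs1 transcript, Sqle, Insig1 and Fdft1. The median r over all 21 pairs was -0.046. Hmgcs1 and Sqle gave Pearson's r = 0.71 and Spearman's rho = 0.62 (permutation p adjusted over 21 pairs 0.00021 and 0.000525), and r was 0.61 without the 2 libraries farthest from the median of Hmgcs1. Hmgcs1 and Fdft1 gave r = 0.64 and rho = 0.65 (0.61 without 2 libraries), and Hmgcs1 and Insig1 gave r = 0.61 and rho = 0.50 (0.49). Sqle and Insig1 gave r = 0.61 and rho = 0.51 (0.51), Sqle and Fdft1 r = 0.52 and rho = 0.54 (0.45), and Insig1 and Fdft1 r = 0.51 and rho = 0.47 (0.40). Within single groups these 6 values of r ran from 0.20 in memantine sham (Insig1 and Fdft1) to 0.89 in saline HF-HI (Hmgcs1 and Fdft1). Over all 23327865 pairs of transcripts in the table the median r was near 0 and the 5th to 95th percentile ran from -0.369 to 0.372.

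Srebf2, Scap and the shorter Hmgcs1 transcript stood outside that group, while the regulator Insig1 was part of it. Over the 40 libraries Srebf2 gave r of -0.24 to 0.05 with the 4 transcripts, and Scap gave -0.24 to -0.066 with them. Within single groups the values of Srebf2 ran from -0.67 in memantine sham (Insig1) to 0.44 in saline HF-HI (Sqle). All 4 were positive in saline HF-HI and all 4 negative in saline sham. The shorter Hmgcs1 transcript gave r = -0.31 and rho = -0.36 with the longer one (permutation p adjusted over 21 pairs 0.111 and 0.0613), a pair that shares reads. With both transcripts summed, Hmgcs1 gave r = 0.67 with Sqle, 0.61 with Insig1 and 0.42 with Fdft1.

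**Figure D4:**
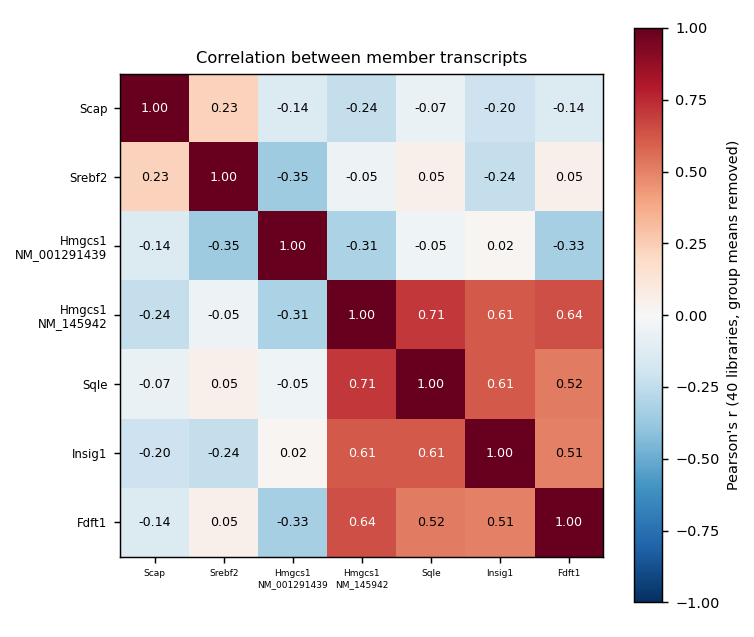
Pearson's r between the deposited values of the 7 member transcripts over 40 libraries after group means were removed (both axes list the transcripts, and the colour bar gives r). The 4 transcripts Hmgcs1 (NM_145942), Sqle, Insig1 and Fdft1 gave r of 0.51 to 0.71 with each other, and Srebf2 gave at most 0.05 with them.

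These shared movements were visible in single libraries. In 7 of 40 libraries all 4 transcripts lay below the mean of their group, and in 11 all 4 lay above it. By the mean standardised distance of the 4 transcripts from their group means, the lowest library was saline HF-HI replicate 1, with counts of 2299 for Hmgcs1, 743 for Sqle, 1018 for Insig1 and 1139 for Fdft1. Saline sham replicate 3 followed, with 2797, 762, 1021 and 1195 in the same order, so low libraries occurred with and without impact. The highest by the same measure was saline HF-HI replicate 6, with 3491, 991, 1326 and 1420.

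The strongest axis of residual variation in the table, the first principal component after group means were removed (6.20% of the variance), did not follow these 4 transcripts, whose r with it lay between -0.17 and 0.12. Srebf2 did follow it (r = -0.84, rho = -0.83, n = 40, a description with no test, since Srebf2 is itself in the table). Removing that component left the 6 pairs at r of 0.51 to 0.71.

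Transcripts whose pattern was most like the members were named by their correlation with the mean standardised residual of the 5 transcripts of the enzymes and Insig1, over 40 libraries, among 6824 other transcripts. Msmo1 ranked first (r = 0.81, rho = 0.78), and Cyp51, a demethylase of lanosterol, was next (r = 0.76, rho = 0.72). Pank3, a kinase of coenzyme A synthesis, ranked 4 and Stmn1, a microtubule-binding protein, ranked 5, both with r = 0.64. Sc5d ranked 7 (r = 0.60). Abca1 stood near the other end, with r = -0.51 at rank 6806 of 6824.

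Markers of other cells moved with some comparisons. The striatal list had 12 transcripts of 8 of its 12 genes, none at 0 in all libraries. Of these, 11 of the 12 were lower in saline HF-HI than in saline sham, 5 of them passing p of 0.05. In the memantine arm 9 of the 12 were lower and none passed. Under saline the summed normalised count of the striatal list ran from 25687 to 43045 in sham and from 25470 to 36975 in HF-HI. Its means there were 35597 ± 4794 and 30868 ± 2911 (SD, n = 10 each). Under memantine the striatal sum ran from 28073 to 42679 in sham and from 23945 to 39142 in HF-HI, with means of 35621 ± 4643 and 34269 ± 4386. The median change of the list in log2 counts was -0.22 under saline and -0.052 under memantine. With the striatal level as a covariate the saline differences were larger for Fdft1 (p = 0.0175) and Sqle (p = 0.0425), and 3 members passed in place of 1. Insig1 gave the strongest correlation of a member with the striatal level, r = -0.44, which had an adjusted permutation p of 0.089 over 21 relations. The oligodendrocyte list had 17 transcripts of 9 of its 10 genes. In each arm 7 were higher and 10 lower with impact, and on the average 8 were higher and 9 lower. Under saline 1 passed, and it was higher. Under memantine 1 passed higher and 1 lower, and likewise on the average. Its summed counts were 51872 to 75533 in sham and 51462 to 77360 in HF-HI under saline. Under memantine they were 56991 to 74634 and 55498 to 70614. Ttr, the 1 measured choroid plexus gene, ran from 74.5 to 22031 counts over the sham libraries and from 156 to 15752 over the impact libraries. Of the cortical neuron list, 10 of 12 transcripts were higher in the saline arm and 3 passed (2 higher and 1 lower). In the memantine arm 5 were higher, 7 were lower and none passed, and on the average 6 were higher and 6 lower. The summed counts of that list were 109376 to 132102 over the sham and 105293 to 129404 over the impact libraries. Of the astrocyte list, with 12 transcripts of 8 genes, 7 were higher and 5 lower under saline, and 4 were higher and 8 lower under memantine. On the average of both arms 6 were higher and 6 lower. In each arm 2 transcripts passed, all higher. They include Gfap, an intermediate filament of astrocytes, which rose by 0.170 ± 0.036 (SE) on the average of both arms (limma, Benjamini-Hochberg adjusted p = 0.027). The summed astrocyte level ran from 131195 to 149309 over the sham and from 134621 to 147896 over the impact libraries. Of the microglia list, 4 of 5 transcripts were higher on the average and 2 passed, both higher, with summed counts of 4345 to 5347 in sham and 4401 to 5596 in impact libraries. Of the endothelial list, 2 of 3 transcripts passed under saline, both higher, and none in the memantine arm (limma, smallest p = 0.312), with 2927 to 3561 in sham and 2967 to 3706 in impact libraries. Beside these marker counts, 9.53% of all transcripts passed under saline, 4.61% under memantine and 9.66% on the average of both arms. No list had a measured marker at 0 in all libraries. The part of these cells in the member differences was not tested beyond those covariates.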

How the data were processed

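The deposited table holds log2 values that the authors made from read counts per RefSeq transcript with DESeq2, by scaling to size factors and a variance-stabilising transformation. Libraries were ribosomal RNA-depleted, stranded total RNA, sequenced paired-end on an Illumina HiSeq. The study's methods name STAR and eXpress on mm10, whereas the submitters' processing notes name HISAT2 and StringTie on mm10, and the sources used here do not settle which applies. Only abundant transcripts were in the table (mean normalised count of at least 549.2), and the filter is not given in the sources used here.

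Normalised counts were recovered by inverting that transformation, whose floor was 10.36. In every library, 100% of values under 5000 (92.3% of all values) were whole reads within 0.05, and size factors ran from 0.859 to 1.141. limma 3.58.1 in R 4.3.3 (eBayes with trend, a term for each of 4 groups, all 40 libraries) was fitted to 6831 transcripts, with Benjamini-Hochberg adjustment over all of them. A call was an unadjusted p-value under 0.05, the study's criterion. The average contrasts are means over the other factor. Correlations and single values used permutation tests with 100000 resamples (numpy 2.4.6, scipy 1.17.1). Procedures were tested on simulated data. Alternatives were the scale, scaling, filter, covariates, replicate block, variance prior, threshold and each library left out. Members, lists and tests were chosen with earlier results of these data known, and the named transcripts were all member transcripts plus listed pathway transcripts with an unadjusted p-value under 0.05, with a few others named for context after their values were seen. Some of the transcripts so named are not reported here. Symbols (99.7% of transcripts), positions and promoters came from RefSeq (GRCm38.p6). The p-values measure the spread between these libraries, because the labels do not say whether each came from a separate mouse.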

Additional observations from a re-analysis of the deposited data

How the results depend on the processing

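Differences here are on the deposited log2 scale unless said otherwise. The number of member transcripts with p under 0.05 in saline HF-HI against saline sham was 1, and it became 2 with the first residual component as a covariate, 3 with the striatal marker level as a covariate, 0 at p under 0.01 and 0 at an adjusted p-value under 0.1. In the memantine arm the count of 2 became 1 after quantile normalisation and 0 at either stricter threshold, and for the average of both arms 3 became 0 at an adjusted p-value under 0.1. For the average drug difference 0 became 1 with the residual component. Leaving out each library in turn gave 1 to 2 transcripts under saline, 0 to 3 under memantine and 2 to 4 for the average.

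The replicate numbers did not pair the libraries (60 same-number pairs, r of -0.130 to 0.160, 4 over 0.1, and 3 of 40 libraries correlating best with their own number), and with a replicate block 2 transcripts passed under saline, Fdft1 being the added one (p = 0.046), while the other counts were unchanged in their side of the threshold.

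The direction of some transcripts that did not pass was reversed. Scap under saline became 0.0084 with the striatal covariate. Insig1 became 0.00025 under memantine with libraries centred on their medians, and -0.0012 for the average with the striatal covariate. Leaving out single libraries moved Insig1 under memantine from -0.0097 to 0.0052 and the shorter Hmgcs1 transcript from -0.011 to 0.027 under saline, from -0.013 to 0.033 under memantine and from -0.0016 to 0.021 for the average. Summed by symbol, Hmgcs1 was -0.12, -0.098 and -0.11 in the same order, since the sum holds the longer transcript too. With the residual component as a covariate Srebf2 passed in each arm (limma p = 0.0151 and p = 0.00286) and on the average at an adjusted p-value of 0.042. This was the 1 member and setting with an adjusted p-value under 0.1 in the impact comparisons. The component, made from residuals of the same table, left the average difference of Srebf2 at -0.061 and lowered its SE from 0.027 to 0.015. Since Srebf2 follows the component, its smaller p-values there come from that construction and are no separate support for the fall. Quantile normalisation moved the longer Hmgcs1 transcript under memantine to limma p = 0.0508. The longer Hmgcs1 transcript kept its direction and call under saline and on average in 50 of 50 alternatives. The cause of these shifts was not tested.

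Among the other pathway transcripts, the average impact calls of Abca1, Scd1, Sec23a, Msmo1 and Fdps were lost in 0 of 40 fits that left out a library, those of Acat2 and Scd2 in 25, Clu and Stard4 in 17 and Fads2 in 16. Under saline the calls of Abca1, Fads2 and Sec23a were lost in 0 such fits, Msmo1 in 1, Fdps in 2, Fads1 in 7, Soat1 and Acat2 in 9 and Scd1 in 10. Under memantine those of Abca1 and Scd1 were lost in 0 and that of Fdps in 15. The call of Sc5d between the sham groups was lost in 9. Of the average drug calls named, that of Fasn was lost in 19, Scd1 in 1 and those of Fads1 and Acss2 in 0. The number of these transcripts with an adjusted p-value under 0.1 was 0 in every comparison other than that average, where it was 1.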
